A study of Mus musculus with 26 samples.

Results

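The genes described here are markers of astrocytes and of radial glia, the neural stem cells from which astrocytes arise. They were taken by name from a list of 33 markers, and 32 of the 33 were measured among 19505 named genes. Prdx6, a peroxidase, is the listed gene not analysed here. Expression was measured on 26 one-colour arrays of biotin-labelled cRNA from 13 cultures of neural stem/progenitor cells (NSPCs), with 1 array per culture and treatment. Cultures were grown from the telencephalon of C57BL/6 mice at postnatal day 0, in medium with EGF and FGF-1, and were used after passage 3. The 4 groups were SOX2 knockout (SOX2 KO) cells given 100 nM dexamethasone (Dex, a synthetic glucocorticoid) for 4 h, wild-type (WT) cells given the same, SOX2 KO cells given ethanol vehicle for 4 h, and WT cells given vehicle for 4 h. The 7 SOX2 KO cultures are numbered 7 to 13 and the 6 WT cultures 1 to 6, each from 1 animal and each with a Dex and a vehicle array. Animals of both sexes were used, the sex of an array is not given, and how the knockout was made (its allele, promoter or Cre) is not given in the sources used here. The comparisons were SOX2 KO against WT under each treatment, Dex against vehicle within each genotype, and the difference between the 2 Dex effects.

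Radial glia divide along the ventricle of the developing brain and give rise to neurons first and to astrocytes later, around birth. Many genes that mark mature astrocytes, such as those for glutamate, GABA and lipid handling, are already transcribed in radial glia and in neural stem cells kept in growth factors. SOX2 is a transcription factor of neural stem cells. Signalling through gp130 and STAT3, through BMPs and SMADs, and through the nuclear factor I proteins is known to promote the onset of astrocyte genes such as Gfap, and glucocorticoids act on astrocytes and stem cells through the glucocorticoid receptor.

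All values are given on the log2 scale of the deposited table, taken as log2 from the values, so a difference of 1 unit is 2-fold. Array medians lay between 6.44 and 6.84. Grouped on their overall profiles, the cultures formed 3 clusters for which no label accounts. Cluster 1 held SOX2 KO cultures 7 and 8 and WT cultures 1, 2 and 3, cluster 2 held SOX2 KO cultures 10 and 12 and WT culture 4, and cluster 3 held SOX2 KO cultures 9, 11 and 13 and WT cultures 5 and 6. Cluster 1 arrays had upper quartiles of 10.09 to 10.43, and the others 9.38 to 9.79. Sox2 itself lay between 3.92 and 6.50 in SOX2 KO arrays and between 12.17 and 14.39 in WT arrays. The arrays of WT culture 4 went against their treatment labels: the glucocorticoid target Fkbp5 was 12.36 on its array labelled Dex and 14.39 on its array labelled vehicle, and Per1, a clock gene induced by glucocorticoids, was 7.98 and 10.72 on the same arrays, whereas both genes were higher with Dex in the other 12 cultures. The Dex array of SOX2 KO culture 12 stood apart from its group for several markers described below. Counts of called markers are therefore also given without these cultures, as is each Dex effect described below that exceeded its SE and moved by over 1.5 times without 1 of them.

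On all 26 arrays, 25 of the 32 measured markers lay above the median of their own array. That median was taken over all 22206 transcript clusters. The share of all named genes above it on every array was not counted, so these counts have no baseline here. Aldh1l1, a folate enzyme used to identify astrocytes, was at 13.99 ± 0.27 (SD, n = 7) in SOX2 KO Dex arrays and 14.22 ± 0.32 (n = 6) in WT Dex arrays. Apoe, the main lipid carrier released by astrocytes, was at 15.85 ± 0.88 and 15.59 ± 1.49 in the same groups. The 7 others included markers of mature astrocytes. Of these 7, Lcat lay above the array median on 25 arrays, Gfap on 24, Dio2 on 17 and Cldn10 on 10. S100b, a calcium-binding protein, lay above the array median on 2 arrays. Slc7a10, a transporter of small neutral amino acids, and Atp13a4, a P-type ATPase, lay below it on every array. Lists of markers of other brain cells differed in level. Of 12 measured oligodendrocyte lineage markers, 5 lay above the array median on all 26 arrays and 1 below it on all, with list means between 8.11 and 10.54 over the 26 arrays. Of 17 neuron markers, 5 lay above it on all arrays and 6 below. Of 11 measured microglia markers, 9 lay below the array median on all 26 arrays and none lay above it on all. The mean level of the microglia list was 4.63 to 5.25 in SOX2 KO Dex arrays, 4.78 to 5.14 in WT Dex arrays, 4.55 to 5.17 in SOX2 KO vehicle arrays and 4.71 to 5.23 in WT vehicle arrays.

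**Figure D1:**
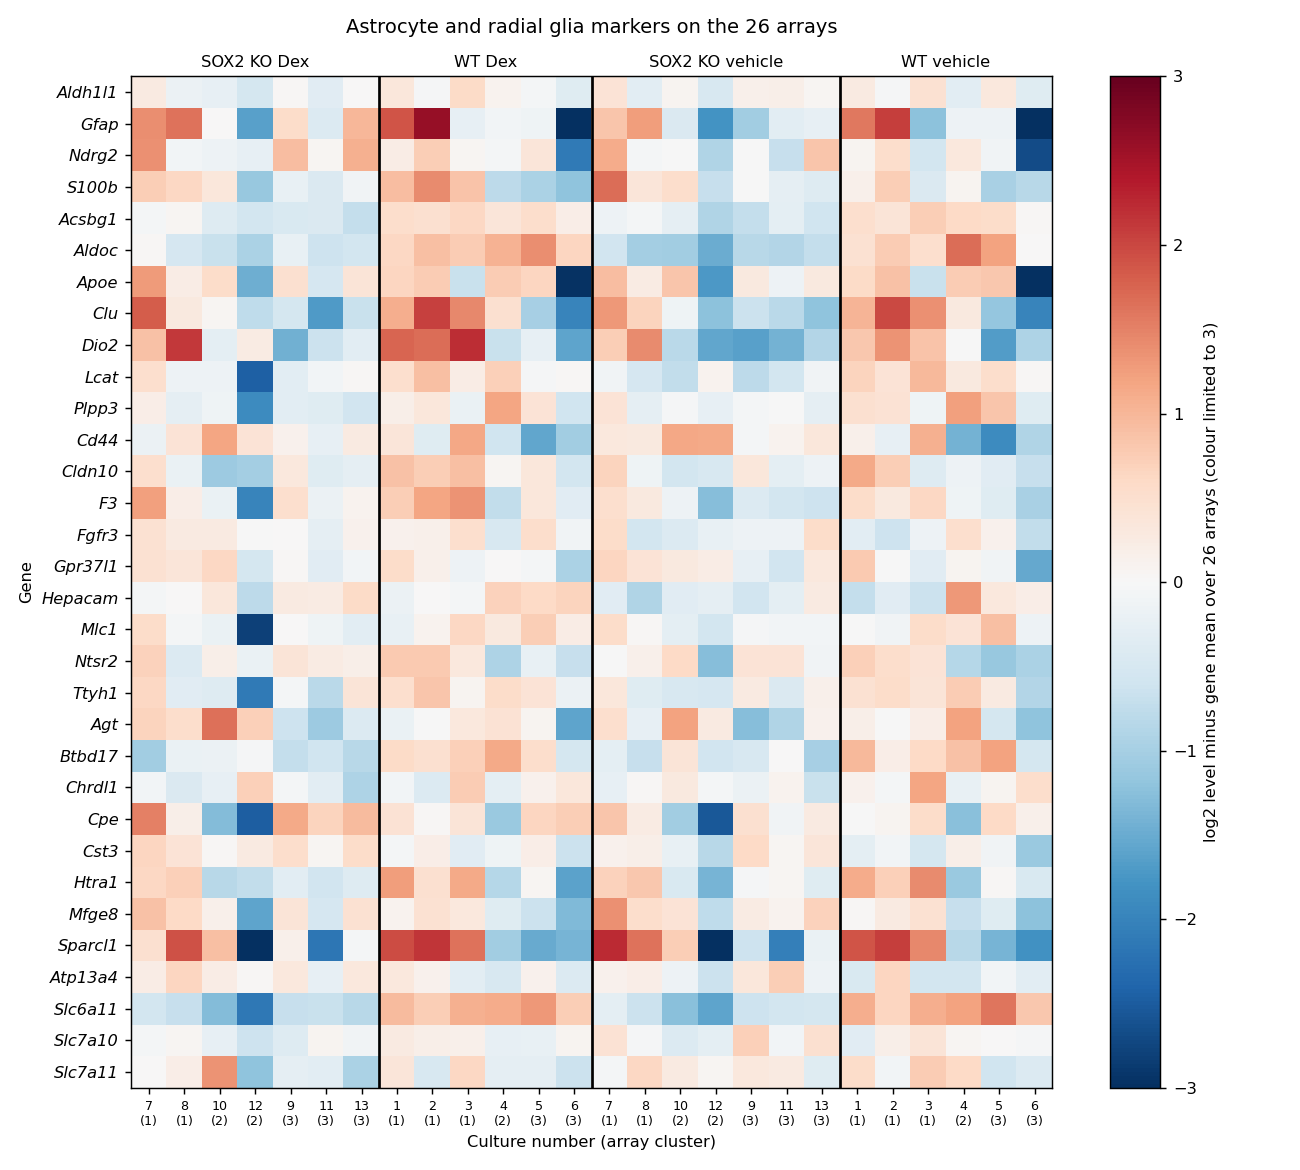
Level of the 32 measured markers (down the page, grouped by role) on the 26 arrays (across, by group and array cluster), drawn as the log2 level minus the gene's mean over all arrays. Slc6a11, Aldoc and Acsbg1 are blue to near white across the SOX2 KO arrays and red to near white across the WT arrays, while Sparcl1, Clu and Gfap vary among cultures of both genotypes.

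In vehicle, SOX2 KO cultures had lower levels of 3 markers than WT cultures, and no marker was called higher. The 3 were the GABA transporter gene Slc6a11, the aldolase C gene Aldoc and the fatty acid activating enzyme gene Acsbg1. They were called by limma with the Benjamini-Hochberg adjustment over all genes, at an adjusted p threshold of 0.05. Over all 19505 genes, 72 were called lower (0.369%) and 37 higher in the same comparison, 0.559% in either direction. The same 3 markers were called lower in Dex, and again none higher, where 74 of all genes were called lower (0.379%) and 36 higher (0.564% in either direction). Without culture 4 the same 3 markers were called under each treatment, against 0.523% of all genes in vehicle and 0.554% in Dex. Without cultures 4 and 12 they were called too, with Lcat in vehicle besides, against 0.6% of all genes in vehicle and 0.508% in Dex. In cells measured in bulk, fewer cells of a type and less RNA per cell cannot be told apart.

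The promoters of these 3 genes are shown because they carry the called genotype differences. They are RefSeq sequences of 300 bases in build GRCm38.p6, from 250 bases before the transcription start to 50 after it, on the strand of the gene. Capitals mark matches to TTCNNNGAA, the palindromic motif of STAT factors. Acsbg1 has 1 promoter in the table (chr9:54661836-54662135, minus strand), Aldoc has 2 (chr11:78322823-78323122 and chr11:78323948-78324247, plus strand) and Slc6a11 has 1 (chr6:114130991-114131290, plus strand).
Acsbg1: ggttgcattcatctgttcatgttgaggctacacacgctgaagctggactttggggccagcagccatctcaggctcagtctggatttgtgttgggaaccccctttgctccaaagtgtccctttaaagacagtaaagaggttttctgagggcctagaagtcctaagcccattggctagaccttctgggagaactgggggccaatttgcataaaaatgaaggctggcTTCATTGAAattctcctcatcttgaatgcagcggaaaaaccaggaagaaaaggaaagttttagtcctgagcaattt
Aldoc, upstream start: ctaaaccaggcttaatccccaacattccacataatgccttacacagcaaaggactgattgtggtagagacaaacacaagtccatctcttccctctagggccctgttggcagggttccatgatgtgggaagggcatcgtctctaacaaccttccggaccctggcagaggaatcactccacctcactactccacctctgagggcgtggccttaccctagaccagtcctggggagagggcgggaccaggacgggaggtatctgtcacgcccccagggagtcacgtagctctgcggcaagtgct
Aldoc, downstream start: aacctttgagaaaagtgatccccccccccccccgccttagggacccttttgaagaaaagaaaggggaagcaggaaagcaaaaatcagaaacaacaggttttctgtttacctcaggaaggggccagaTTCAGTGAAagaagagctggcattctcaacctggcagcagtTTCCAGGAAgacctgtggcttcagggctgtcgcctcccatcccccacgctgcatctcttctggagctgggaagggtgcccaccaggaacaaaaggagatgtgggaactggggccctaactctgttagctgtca
Slc6a11: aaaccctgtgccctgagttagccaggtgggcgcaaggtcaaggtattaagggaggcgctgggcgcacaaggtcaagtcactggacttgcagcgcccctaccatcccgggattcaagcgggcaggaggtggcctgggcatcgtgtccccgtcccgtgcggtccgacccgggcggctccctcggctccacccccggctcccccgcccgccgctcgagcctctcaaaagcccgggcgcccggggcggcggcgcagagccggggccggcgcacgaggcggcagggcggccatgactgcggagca
The Acsbg1 window held TTCATTGAA at bases 225 to 233. The downstream Aldoc window held TTCAGTGAA at bases 127 to 135 and TTCCAGGAA at bases 168 to 176. The upstream Aldoc window and that of Slc6a11 held no match. None of the 4 windows held the SOX motifs CATTGT or CTTTGT or the single glucocorticoid receptor motif AGAACA on either strand.

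Over the marker list, 28 genes had 36 such promoters in the RefSeq table. A match to TTCNNNGAA stood in 6 of the 36 (16.7%), those of Acsbg1, Agt, Aldoc, Gfap, Ntsr2 and Slc7a11, against 8.30% of all 32851 promoters. CATTGT was found in 3 of the 36, against 12.6% of all promoters, and CTTTGT in 8, against 18.7%. At least 1 of these SOX motifs stood in 9 of the 36, against 28.6% of all. AGAACA stood in 6 (16.7%), against 19.0% of all. Both strands were searched. AGAACA is also part of the full glucocorticoid receptor site, in which AGAACA and TGTTCT are 3 bases apart. Neither that full site nor the nuclear factor I palindrome, with TTGGC and GCCAA 5 bases apart, was found in any of the 36. These are matches of letters only, with no data on binding.

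Slc6a11 encodes GAT-3, which takes up GABA into astrocytes, and had the largest genotype difference of the list. In vehicle its level was 12.13, 13.10 and 13.42 (lowest, median and highest) in SOX2 KO cultures, against 14.36, 14.81 and 15.33 in WT cultures. Every SOX2 KO culture was lower than every WT culture, and the lowest were cultures 12 and 10 of array cluster 2. The log2 difference was -1.86 ± 0.24 (moderated SE, n = 7 SOX2 KO and 6 WT cultures, as for all genotype differences), or 3.62-fold lower, with a limma adjusted p of 2.87e-05. In Dex the level was 11.58, 13.02 and 13.18 in SOX2 KO cultures, against 14.46, 14.73 and 15.03 in WT cultures. The groups again did not overlap, with culture 12 the lowest, and the difference was -1.97 ± 0.24 (limma adjusted p = 9.83e-06). Within array clusters 1, 2 and 3 the vehicle difference was -1.41, -2.62 and -1.77. Cluster 2 holds only 1 WT culture, culture 4, and without that culture the difference was -1.83 in vehicle and its adjusted p 0.00018.

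Aldoc encodes aldolase C, a glycolytic enzyme that in the brain marks astrocytes and radial glia. Its vehicle level was 12.69, 13.30 and 13.61 (lowest, median and highest) in SOX2 KO cultures, against 14.19, 14.82 and 15.85 in WT cultures. The genotypes did not overlap. The highest WT value was that of culture 4 and the lowest that of culture 6. Aldoc was 3.26-fold lower in SOX2 KO, a log2 difference of -1.71 ± 0.22 (limma adjusted p = 3.57e-05), and -1.53 without culture 4. In Dex the level was 13.24, 13.62 and 14.21 in SOX2 KO cultures, against 14.81, 15.01 and 15.58 in WT cultures. The ranges were again apart. The Dex difference was -1.40 ± 0.22, or 2.64-fold lower (limma adjusted p = 0.000803). The differences within clusters 1, 2 and 3 were -1.38, -2.94 and -1.42 in vehicle and -1.0, -1.85 and -1.50 in Dex.

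Acsbg1 encodes the bubblegum acyl-CoA synthetase, which activates long-chain fatty acids. Its vehicle level was 14.07, 14.69 and 14.93 (lowest, median and highest) in SOX2 KO cultures, against 15.03, 15.51 and 15.73 in WT cultures. The groups did not overlap, with SOX2 KO culture 8, at 14.93, next to WT culture 6, at 15.03. The difference was -0.90 ± 0.17, or 1.87-fold lower (limma adjusted p = 0.00596). In Dex the level was 14.27, 14.56 and 15.05 in SOX2 KO cultures, against 15.19, 15.48 and 15.60 in WT cultures. The difference of -0.81 ± 0.17 had an adjusted p of 0.0173, and this call depended on the arrays used. The adjusted p was 0.0897 with only the 2 Dex groups in the fit, and between 0.05 and 0.072 when culture 1, 2, 3, 5 or 13 was left out.

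Non-overlapping levels with SOX2 KO lower were found in these 3 of the 32 markers in vehicle, against 0.359% of all genes, and in the same 3 in Dex, against 0.292% of all genes. No marker had non-overlapping levels with SOX2 KO higher in either treatment.

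**Figure D2:**
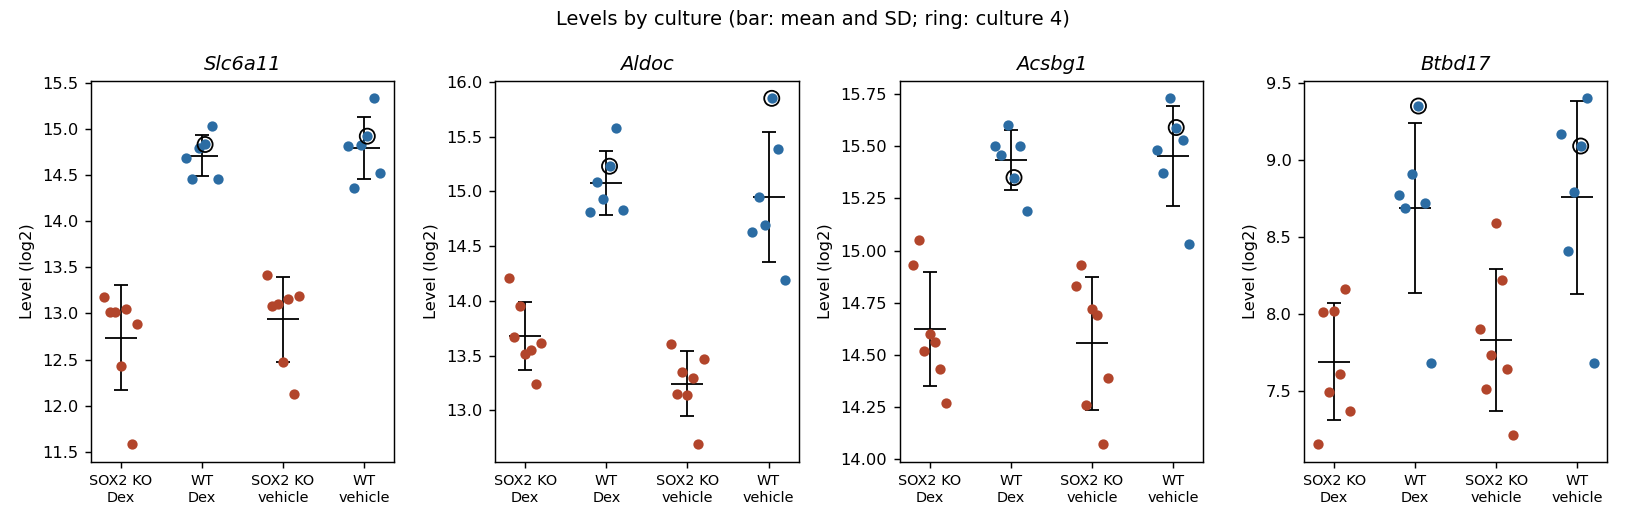
Log2 level of Slc6a11, Aldoc, Acsbg1 and Btbd17 in each culture, by group, with the mean and SD in black and rings around the arrays of WT culture 4. The SOX2 KO points of Slc6a11, Aldoc and Acsbg1 lie below all WT points in Dex and in vehicle. The Btbd17 ranges overlap through WT culture 6 in both treatments, and in vehicle also through SOX2 KO culture 10.

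Btbd17, which encodes a BTB domain protein, was next by p in both treatments and was not called. Its vehicle level was 7.21, 7.73 and 8.59 (lowest, median and highest) in SOX2 KO cultures, against 7.68, 8.94 and 9.40 in WT cultures. In vehicle the overlap came from WT culture 6, at 7.68, and from SOX2 KO culture 10. The latter, at 8.59, was above WT culture 2, at 8.41. In Dex the overlap came from WT culture 6 alone, again at 7.68, with the other WT cultures at 8.69 or above. The difference was -0.93 ± 0.27 in vehicle (limma adjusted p = 0.163) and -1.0 ± 0.27 in Dex (adjusted p = 0.103). Without culture 6 it was -1.14 in vehicle (adjusted p = 0.0108) and -1.20 in Dex (adjusted p = 0.00625). These were the lowest adjusted p values when each culture was left out. The highest were 0.495 in vehicle and 0.258 in Dex. The difference nearest 0 was -0.80 in vehicle, without culture 5, and -0.87 in Dex, without culture 4. With the array cluster as a covariate the Btbd17 difference was -0.96 in vehicle (adjusted p = 0.0312) and -1.03 in Dex (adjusted p = 0.0177), fits in which 1.93% and 2.04% of all genes were called.

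Grouped by role, the markers of metabolism, lipids and redox had the largest share of members below 0 in vehicle. In vehicle, 6 of these 7 differed by less than 0, with a median of -0.66. Besides Aldoc and Acsbg1 they were the lecithin-cholesterol acyltransferase gene Lcat (-0.87 ± 0.30, adjusted p = 0.372), the thyroid hormone activating deiodinase gene Dio2 (-0.66 ± 0.62), the lipoprotein gene Clu (-0.55 ± 0.63) and the lipid phosphatase gene Plpp3 (-0.49 ± 0.29, or -0.32 without culture 4). Apoe differed by 0.24 ± 0.60. Lcat overlapped between genotypes, with 7.30 to 8.18 in SOX2 KO cultures and 8.13 to 9.05 in WT cultures in vehicle. Without culture 12 its vehicle difference was -0.95 ± 0.20, with an adjusted p of 0.0132. The Dex difference of Lcat was -0.76 ± 0.30 with that culture and -0.42 ± 0.20 without it (limma adjusted p = 0.715).

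Of the 4 transporter genes, Slc6a11 was the one called. Slc7a10, Slc7a11 (the cystine and glutamate exchanger) and Atp13a4 differed in vehicle by 0.07 ± 0.19, 0.03 ± 0.31 and 0.28 ± 0.22. The 9 receptors and membrane proteins included no called member in vehicle or in Dex. Their vehicle differences ran from -0.40 for Ttyh1, a membrane protein of neural stem cells, to 1.01 for Cd44, the hyaluronan receptor.

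Cd44 had the largest positive difference of the list. Its vehicle level was 12.90, 13.29 and 14.12 (lowest, median and highest) in SOX2 KO cultures, against 11.08, 12.38 and 14.04 in WT cultures. The groups overlapped, the WT range being the wider. The difference of 1.01 ± 0.39 had an unadjusted p of 0.0160 and a limma adjusted p of 0.573. Within clusters 1, 2 and 3 it was -0.02, 2.58 and 1.52 in vehicle. With Eif2s3y, a Y-linked gene, as a covariate the vehicle difference was 1.23, with an adjusted p of 0.0337.

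The 4 cytoskeletal and cytosolic markers did not move one way. Gfap, the intermediate filament of mature and reactive astrocytes, was at 6.96, 8.45 and 10.00 in SOX2 KO vehicle arrays, against 5.48, 8.61 and 10.83 in WT vehicle arrays. These ranges lay one inside the other, and the difference was -0.06 ± 0.78. Aldh1l1 differed by -0.04 ± 0.19. Ndrg2, a cytosolic marker of astrocytes, differed by 0.45 ± 0.45, or by -0.01 without WT culture 6, and S100b by 0.38 ± 0.42. The precision of these values is limited by the number of arrays and by the spread between cultures.

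The 8 secreted and other markers had 6 members below 0 and 2 above it in vehicle, none called. The lowest after Btbd17 was Sparcl1 (-0.42 ± 0.88, or 0.07 without culture 12), a matrix protein of astrocytes that promotes synapses. The highest was Mfge8 (0.63 ± 0.36), an adaptor for the uptake of dying cells. The protease inhibitor gene Cst3 differed by 0.37 ± 0.22 in vehicle and by 0.49 ± 0.22 in Dex (adjusted p = 0.589), and the BMP antagonist gene Chrdl1 by -0.38 ± 0.24 in vehicle.

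Over the 32 markers, 20 differed by less than 0 and 12 by more in vehicle, with a median of -0.21, against -0.03 over all genes. In Dex 21 were below 0 and 11 above it, with a median of -0.22, against -0.06 over all genes. These medians were near 0 once the array clusters entered the fit, at 0.01 in vehicle and 0.01 in Dex, and the vehicle median was -0.01 without SOX2 KO culture 12. At an unadjusted p under 0.05 there were 5 markers lower and 1 higher in vehicle, and 9 lower and 1 higher in Dex, against 5.17% of all genes in vehicle and 7.56% in Dex for both directions together. The count in Dex leaned on SOX2 KO culture 12. Without it the Dex difference of Mlc1 moved from -0.71 ± 0.33 to -0.31 ± 0.21. That of Ttyh1 moved from -0.75 ± 0.32 to -0.46 ± 0.26, and that of Plpp3 from -0.70 ± 0.29 to -0.46 ± 0.26. Btbd17 moved the other way, from -1.0 to -1.08. A difference of the same sign in all 3 array clusters was found for 10 of 32 markers in vehicle, against 35.0% of all genes, and for 12 in Dex, against 31.8% of all genes. The markers lower in SOX2 KO in every cluster under vehicle were Aldoc, Acsbg1, Hepacam, Slc6a11, Plpp3, Btbd17 and Lcat, 7 of 32, against 15.4% of all genes. Gpr37l1, Mfge8 and Atp13a4 were higher in every cluster, 3 of 32, against 19.5% of all genes.

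**Figure D3:**
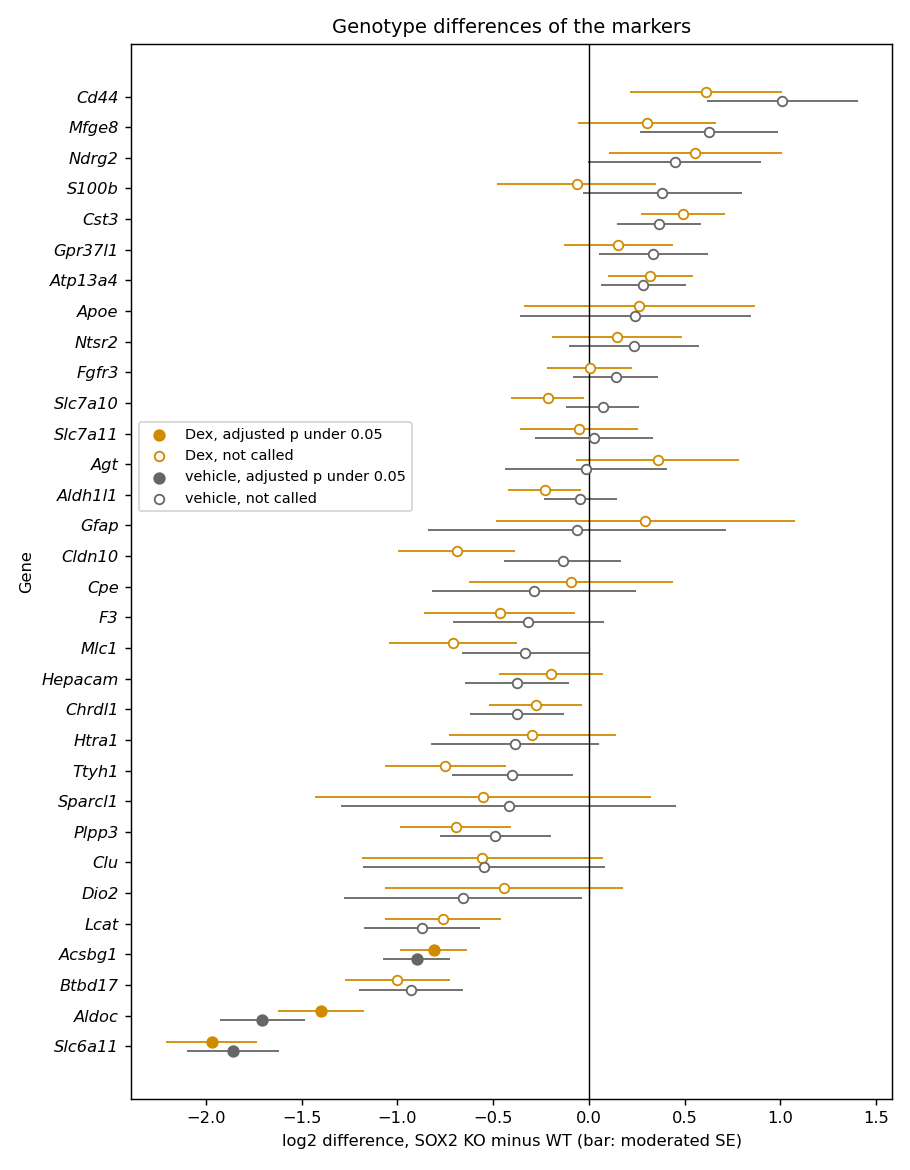
Log2 difference of SOX2 KO minus WT for each of the 32 markers in Dex and in vehicle, with the moderated SE as a bar and filled points where the adjusted p was under 0.05. The filled points are Slc6a11, Aldoc and Acsbg1 under both treatments, at -1.97 to -0.81, and the bars are widest for Sparcl1, Gfap, Clu, Dio2 and Apoe.

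Dex left no called change among the markers in either genotype. In SOX2 KO cultures 0 of 32 markers were called by limma with the culture as a block, 7 were higher and 2 lower at an unadjusted p under 0.05, and 14 of all genes were called (0.0718%), each higher, with 1984 at an unadjusted p under 0.05 (10.2%). In WT cultures 0 of 32 markers and 0 of all genes were called, no marker and 755 genes (3.87%) having an unadjusted p under 0.05. Without culture 4, 46 genes were called higher and 3 lower in SOX2 KO (0.251%) and 31 higher and 2 lower in WT (0.169%), and again none of them was a marker.

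In SOX2 KO cultures the median Dex effect over the markers was -0.02, as it was over all genes, with 16 members above 0 and 16 below, and it was 0.01 after quantile normalization. In WT cultures the median was 0.09, against 0.00 over all genes, with 22 above 0 and 10 below. By culture, the median difference of the markers was between 0.055 and 0.12 in 6 of the 7 SOX2 KO cultures and -0.13 in culture 11. It was between 0.045 and 0.12 in WT cultures 1, 2, 3, 5 and 6 and -0.09 in culture 4.

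Aldoc had the smallest p in SOX2 KO. Its Dex minus vehicle difference was 0.15 to 0.60 over the 7 SOX2 KO cultures, all above 0, and averaged 0.44 ± 0.13 (moderated SE, as for all Dex effects, limma adjusted p = 0.336). In WT it was 0.14 to 0.64 in 5 cultures and -0.62 in culture 4, with a mean of 0.13 ± 0.14, or 0.28 ± 0.14 without culture 4. The difference between the genotypes' Dex effects was 0.31 ± 0.20 (limma adjusted p = 0.999), and 0.16 ± 0.18 without culture 4.

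Gfap differed with Dex by 0.61 ± 0.19 in SOX2 KO cultures (limma adjusted p = 0.336), being higher in 6 of 7 and lower by 0.11 in culture 11. The differences of SOX2 KO cultures 9 and 13 were the largest, at 1.58 and 1.25. In WT cultures Gfap differed by 0.26 ± 0.20 and was higher in 5 of 6. Without WT culture 3 this was 0.11.

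Dio2 differed by 0.67 ± 0.25 in SOX2 KO cultures (adjusted p = 0.401) and was higher in all 7, by 0.14 to 1.81. The largest value was that of culture 12. In WT cultures it differed by 0.46 ± 0.27 (adjusted p = 0.998), from -0.67 to 1.42, with cultures 4 and 6 lower under Dex and the other 4 higher. Without WT culture 5 the mean was 0.26, and without WT culture 4 it was 0.68 ± 0.27 (limma adjusted p = 0.974).

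Hepacam encodes an adhesion protein of astrocyte end-feet that binds MLC1. It differed by 0.44 ± 0.17 in SOX2 KO cultures (adjusted p = 0.418) and was higher in 6 of 7, with culture 12 at -0.51. In WT it differed by 0.26 ± 0.18, and by 0.44 without culture 4, which was at -0.62. With both cultures 4 and 12 left out, a fit added after seeing the data, the SOX2 KO difference was 0.60 ± 0.12 (limma adjusted p = 0.0343). In that fit 0.338% of all genes were called (0.297% for Dex in WT). The limma adjusted p was 0.386 without culture 4 alone and 0.205 without culture 12 alone. Hepacam was the only marker called for Dex in any of the fits run.

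In WT the smallest p was that of Cldn10, a tight junction gene, which differed by 0.34 ± 0.17 (adjusted p = 0.998) and was higher in 5 of 6 cultures, from -0.28 to 1.29. The highest was WT culture 3, without which the mean was 0.15. In SOX2 KO it was lower in all 7 cultures, by 0.02 to 0.53, with a mean of -0.21 ± 0.16. The difference of the 2 Dex effects was -0.55 ± 0.23, the smallest p of the list for that contrast, with a limma adjusted p of 0.999, and it was -0.36 without WT culture 3. F3, the tissue factor gene, differed in WT by 0.42 ± 0.21, and Ndrg2 by 0.27 ± 0.16 (adjusted p = 0.998 for each). Both were higher with Dex in 5 of 6 WT cultures, the exception being culture 4. Without culture 4, F3 differed by 0.62 ± 0.21 and Ndrg2 by 0.40 ± 0.17 (limma adjusted p = 0.759 and 0.974). In SOX2 KO, Ndrg2 differed by 0.38 ± 0.15 (limma adjusted p = 0.430, unadjusted p under 0.05). F3 differed there by 0.27 ± 0.20, or by 0.43 without culture 12.

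For the difference of the Dex effects no marker and no other gene was called by limma, with 1 marker and 688 genes (3.53%) at an unadjusted p under 0.05. After Cldn10 the smallest p values were those of Cd44 (-0.40 ± 0.21), Mfge8 (-0.33 ± 0.19) and Aldoc. These comparisons share arrays with the genotype comparisons, since the SOX2 KO Dex and WT Dex arrays enter both.

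Counted by direction alone, 2 of the 32 markers, Aldoc and Dio2, were higher with Dex in all 7 SOX2 KO cultures, against 1.01% of all genes. Slc6a11 and Cldn10 were lower in all 7, against 1.49%. In the 6 WT cultures none was higher in all, against 2.07% of all genes, and Plpp3 was lower in all, by 0.05 to 0.42, against 2.11%. Leaving out culture 4, 6 markers were higher in the other 5 WT cultures, against 5.03% of all genes: Aldoc, Fgfr3, Cst3, Hepacam, Ndrg2 and F3. Plpp3 was lower in these 5, against 4.96%. Fgfr3, a receptor for FGFs, had the largest change in its mean when culture 4 was left out, being 0.32 ± 0.21 with it and 0.58 without it (adjusted p = 0.613).

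**Figure D4:**
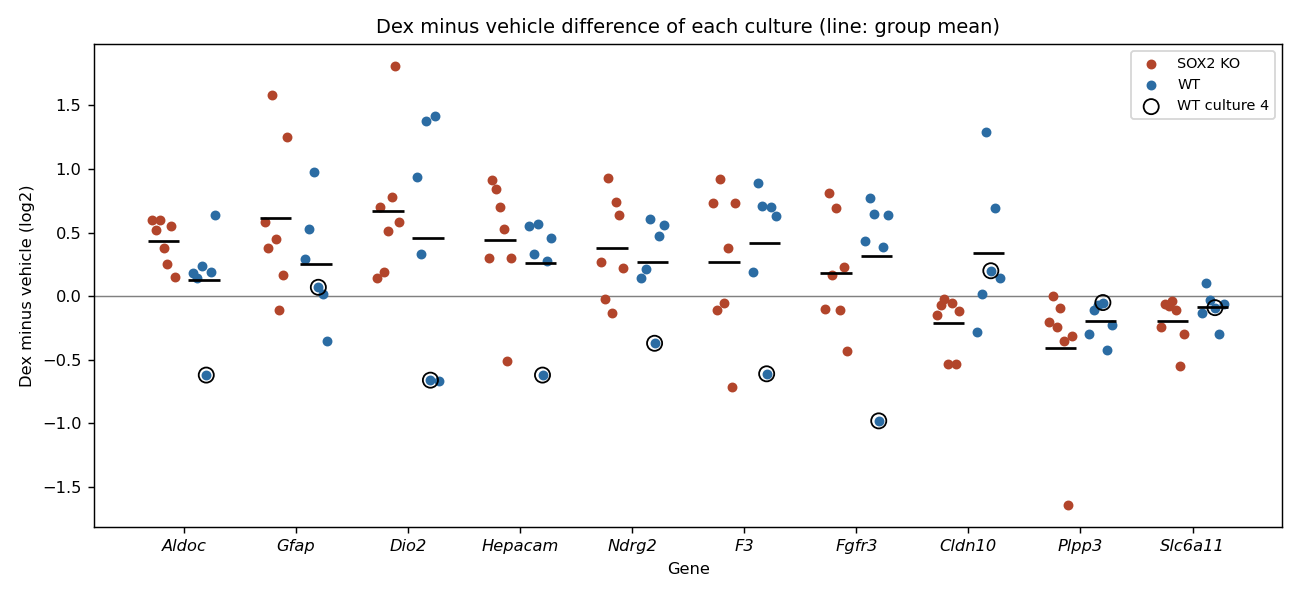
Dex minus vehicle difference in log2 units of 10 markers in each culture, SOX2 KO to the left of WT for each gene, with lines at the group means and rings around WT culture 4. Aldoc and Dio2 lie above 0 in all SOX2 KO cultures, and culture 4 is the lowest WT point for Aldoc, Hepacam, Ndrg2, F3 and Fgfr3.

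The spread between cultures was wide for many markers. The SD within genotype over the vehicle arrays had a median of 0.59 over the 32 markers, against 0.41 over all genes, and 13 of the 32 exceeded 0.635, the 90th percentile over all genes. The largest were Sparcl1 (1.85), Gfap (1.56), Apoe (1.30), Clu (1.28) and Dio2 (1.18). Acsbg1, at 0.28, had the smallest.

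Sparcl1 varied by 5.36 over the 13 vehicle arrays. Its level in SOX2 KO vehicle arrays was 8.62, 11.55 and 13.98 (lowest, median and highest), against 9.92, 12.04 and 13.81 in WT vehicle arrays. The highest cultures of both genotypes were those of array cluster 1, where the mean was 13.68 in SOX2 KO and 13.54 in WT. In clusters 2 and 3 it was 10.55 and 10.79 in SOX2 KO and 10.91 and 10.13 in WT.

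Clu and Dio2 were likewise highest in cluster 1 in both genotypes. Clu averaged 10.49 in SOX2 KO and 10.96 in WT cultures of cluster 1, and between 7.93 and 9.79 in the other clusters. Dio2 averaged 8.42 and 8.35 in cluster 1, and between 6.04 and 7.34 in the others. The cluster means are descriptions, since the clusters were made from all genes, these included, and whether they reflect how the arrays were scaled was not tested.

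The Gfap means were also highest in cluster 1, at 9.79 in SOX2 KO and 9.57 in WT. In clusters 2 and 3 they were 7.64 and 8.22 in SOX2 KO and 8.61 and 7.04 in WT. Single cultures varied within the clusters. In cluster 1, SOX2 KO cultures 7 and 8 were at 9.58 and 10.00 in vehicle, and WT cultures 1 and 2 at 10.35 and 10.83, while WT culture 3 was at 7.53. WT culture 6, of cluster 3, was the lowest at 5.48. Apoe was likewise lowest in WT culture 6, at 12.52, against a WT median of 16.39, and in SOX2 KO the lowest was culture 12 at 14.01, against a median of 16.01.

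**Figure D5:**
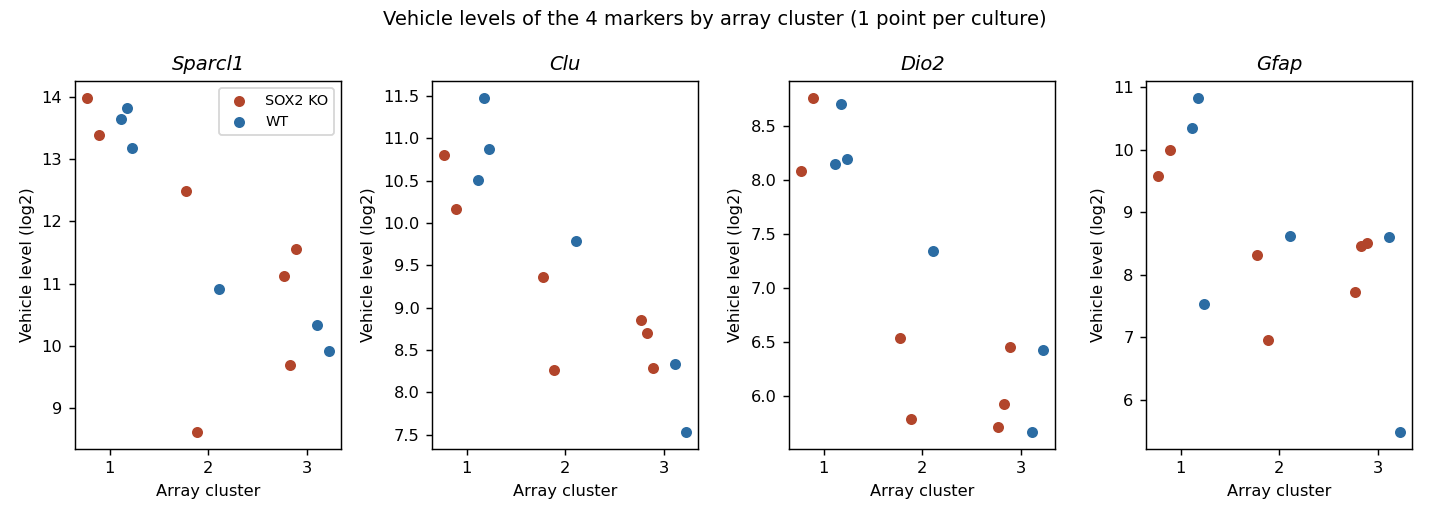
Vehicle level in log2 units of Sparcl1, Clu, Dio2 and Gfap in each culture, by array cluster, with SOX2 KO to the left of WT. Sparcl1, Clu and Dio2 are higher in every culture of cluster 1 than in any other culture. Gfap ranges from 7.53 to 10.83 within that cluster, though its means are also highest there.

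Other astroglial genes, a separate list of 36 with 33 measured, included 5 called lower and none higher in SOX2 KO in vehicle. Of all genes, 0.369% were called lower and 0.19% higher there. Kcnj16, an inward rectifier potassium channel gene, was at -2.52 ± 0.27, Slc25a18, a mitochondrial glutamate carrier gene, at -2.64 ± 0.33, Mt3, a metallothionein gene, at -2.08 ± 0.34, and Slc4a4, a bicarbonate cotransporter gene, at -2.0 ± 0.34. The fifth was Slc1a2, the glutamate transporter GLT-1 (-2.03 ± 0.35). Each had a limma adjusted p of 0.00204 or less. The same 5 were called lower in Dex, against 0.379% of all genes, though Mt3 had an adjusted p of 0.0511 or 0.0603 there without culture 9 or 13. Pla2g7, a phospholipase gene, was called higher in Dex (1.39 ± 0.33, adjusted p = 0.0460), with an adjusted p of 0.0723 to 0.115 when culture 1, 2, 4, 7, 8, 9, 10, 11 or 13 was left out. The median of this list was -0.06 in vehicle, against -0.03 over all genes.

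Among 24 measured regulators of astrocyte formation, Bmp7, a ligand of the BMP pathway, was lower in SOX2 KO, with a difference of -1.56 ± 0.34 in vehicle (limma adjusted p = 0.0203, or 0.0558 to 0.0818 without culture 1, 2, 3, 4, 9 or 13) and of -1.78 ± 0.34 in Dex (adjusted p = 0.00554). Id2, a target of BMP signalling, was higher in vehicle by 1.81 ± 0.43 (adjusted p = 0.0416, or 0.0564 to 0.130 without any 1 culture other than 2, 3 and 12), and differed by 1.37 ± 0.43 in Dex (adjusted p = 0.208). Among 27 measured genes of reactive astrocytes, none was called between genotypes, and Fkbp5 was called higher with Dex in SOX2 KO, by 2.20 ± 0.32 (adjusted p = 0.0103, or 0.0568 without culture 13).

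Of the markers of other cells, 1 gene was called between genotypes, against 0.559% of all genes in vehicle and 0.564% in Dex. Syt1, a synaptic vesicle protein gene among 17 measured neuron markers, was lower in SOX2 KO, with a difference of -1.59 ± 0.34 in vehicle (adjusted p = 0.0149) and of -1.42 ± 0.34 in Dex (adjusted p = 0.0399, or 0.0640 to 0.129 without any 1 culture other than 5, 6 and 7). The mean level of the neuron list was 6.86 to 7.29 in SOX2 KO vehicle arrays and 7.20 to 7.66 in WT vehicle arrays, overlapping slightly. Among 22 measured neural stem cell genes, 12 of the oligodendrocyte lineage, 11 of microglia, 9 of endothelium, 12 of mural cells and fibroblasts and 7 of ependyma, none was called in any comparison. The mean level of the stem cell list was 11.33 to 11.67 in SOX2 KO vehicle arrays and 11.35 to 11.69 in WT vehicle arrays. The part of these lists in the marker differences was not tested.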

How the data were processed

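The deposited table of 22206 transcript clusters holds values taken as log2 expression, since they lie between 2.22 and 19.81 with 2 decimals; the base of the log, the normalization and the software the authors used are not given in the sources used here. Upper quartiles differed between arrays, which had therefore not been put on 1 common distribution. Of the transcript clusters, 19572 carried 1 gene symbol and 2634 none. For 55 genes with several, the one of highest mean was kept, which left 19505 genes, and each marker had 1.

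Genotype contrasts were fitted with limma 3.58.1 in R 4.3.3 as a model of 4 group means on 26 arrays. This model counted the 2 arrays of a culture as independent. With the culture as a random block, Slc6a11, Aldoc and Acsbg1 stayed called under both treatments. With only the 2 vehicle groups, the limma adjusted p was 0.000262 for Slc6a11, 0.00177 for Aldoc and 0.0298 for Acsbg1. Dex contrasts used the culture as a fixed block. P-values were adjusted by Benjamini-Hochberg over all genes, with a threshold of 0.05. The culture number marks 1 animal per the labels' protocols, and the profiles left after removing group means correlated at 0.31 to 0.73 within every pair of the same number. The 3 array clusters came from clustering these profiles.

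The markers and the comparison lists were chosen with earlier results of these data known, so no test was made over a list. Levels in every group were given for markers called in any contrast. For the other markers among the 4 of smallest p in each contrast, differences were given, with levels in some groups for some of them. Remaining markers were given by counts, ranges, differences or means. From other lists up to 4 called genes of smallest p per contrast were named. Slc1a2 and Pla2g7 fell outside this rule and were named after their values were seen. Sox2, Fkbp5 and Per1 served as checks of the labels.

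The fits were tested on simulated data with 19505 genes. Noise was drawn independently for each gene, and no culture with reversed labels, array cluster or outlying array was simulated. For changes of 1 and 2 log2 units the fits recovered 55% and 98% for the genotype contrast under vehicle and 57% and 97% under Dex. They recovered 89% and 100% for Dex in SOX2 KO, 89% and 99% for Dex in WT, and 38% and 94% for the difference of the Dex effects. False calls were 14, 14, 9, 9 and 4 in the same order. How far these shares hold with culture 4 in the data was not tested. Alternatives were quantile normalization, median centring, leaving out the lowest 25% of genes by mean, array weights, a prior fitted with a trend and robustly, averaging the transcript clusters that share a gene, the culture as a random block or no block, the array cluster or the level of Eif2s3y as a covariate, only the 2 groups compared, and leaving out each culture. Leaving out culture 4 together with another change, or with culture 12, was added after seeing the data.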

Additional observations from a re-analysis of the deposited data

Results flagged for a closer look

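Within each of the 4 groups, the culture at either end was compared with the range of the others for each marker, over 128 combinations of marker and group. In 11 of them 1 culture stood apart by Dixon's criterion, which chance gives in about 5% of groups. SOX2 KO culture 12 accounted for 5. On its vehicle array Ntsr2, a neurotensin receptor gene, was at 8.14, with the other SOX2 KO vehicle arrays at 9.30 to 10.02, and Apoe was at 14.01, with the others at 15.57 to 16.66. On its Dex array Mlc1, a membrane protein gene of astrocyte end-feet, was at 9.71 (others 12.19 to 13.06), Plpp3 at 11.10 (others 12.41 to 13.19) and Lcat at 5.64 (others 7.77 to 8.58).

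WT culture 6 accounted for 4. In vehicle its Ttyh1 level was 11.93, with the other WT cultures at 13.06 to 13.55, and its Ndrg2 level was 10.89, with the others at 13.04 to 14.11. In Dex its Ndrg2 level was 11.45 (others 13.52 to 14.32), and that of the angiotensinogen gene Agt was 7.02 (others 8.42 to 9.04).

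In WT culture 4 the vehicle level of Cpe, a carboxypeptidase gene, was 11.89, with the others at 13.14 to 13.76. In SOX2 KO culture 7 the vehicle level of Plpp3 was the one high value, 13.39, with the others at 12.72 to 12.97.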

How the results depend on the processing

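Slc6a11 and Aldoc were called lower in SOX2 KO under both treatments in every fit run, and Acsbg1 in vehicle in every fit run. The number of markers called in SOX2 KO against WT was 3 to 4 in vehicle and 2 to 4 in Dex when each culture was left out, and 0 in each Dex contrast. Of all genes, 75 to 143 were called in vehicle and 69 to 160 in Dex in these genotype fits. Array weights gave 5 called markers in vehicle, adding Btbd17 and Lcat, with 378 of all genes called, against 109 without weights. The Eif2s3y level as a covariate added Cd44 in vehicle, called higher, with 159 of all genes called. Leaving out cultures 4 and 12 gave 1 called marker for Dex in SOX2 KO, Hepacam, against 0.338% of all genes. No called difference changed sign in these fits. With no replicate block, 0 markers were called in each Dex contrast, as with it, and 10 of all genes were called for Dex in SOX2 KO, against 14 with the block.

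When each culture was left out, the median of the markers ran from -0.33 to -0.01 in vehicle, from -0.32 to -0.12 in Dex, from -0.08 to -0.01 for Dex in SOX2 KO, from 0.03 to 0.10 for Dex in WT and from -0.09 to -0.00 for the difference of the Dex effects. Without culture 4 and with the array cluster as a covariate the vehicle median was 0.14.

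Counts over all genes moved more than those of the markers. In vehicle 109 genes were called, against 169 after quantile normalization, 376 with the array cluster as a covariate and 378 with array weights. In Dex the counts were 110, 171, 397 and 561 in the same fits, and 72 with only the 2 Dex groups. For Dex in SOX2 KO 14 genes were called, against 31 with only the 2 SOX2 KO groups, 49 without culture 4 and 69 with array weights, and for Dex in WT 0, against 33 without culture 4 and 97 with array weights. Why these counts moved was not tested. The number of arrays limits all of these values, as does the unstated scaling of the deposited table.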

Other observations

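Some members of the marker list not described above differed with Dex in SOX2 KO cultures at an unadjusted p under 0.05, with no call by limma. Cst3 differed by 0.32 ± 0.14 (adjusted p = 0.474) and was higher in 5 of 7 cultures. Without culture 12 it differed by 0.18 ± 0.12. Cpe differed by 0.36 ± 0.15 (adjusted p = 0.439) and was higher in 5 of 7. Plpp3 differed by -0.40 ± 0.16 (adjusted p = 0.425), from -1.64 in culture 12 to 0.00, and by -0.20 ± 0.10 without that culture. Mfge8 differed by -0.31 ± 0.13 (adjusted p = 0.445), being lower in 5 of 7.

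Lcn2, a lipocalin gene of reactive astrocytes, averaged 5.78 in SOX2 KO Dex arrays and 4.42 in SOX2 KO vehicle arrays, and 4.97 in WT Dex arrays and 4.23 in WT vehicle arrays. Its Dex effect in SOX2 KO was 1.36 ± 0.29 (limma adjusted p = 0.115, or 0.0272 without culture 4), and it was named after its values were seen. In WT it was 0.74 ± 0.31 (adjusted p = 0.998).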
